A study of Homo sapiens with 15 samples.

Results

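LIN28A, LIN28B, IGF2BP1, IGF2BP2, IGF2BP3, HMGA1, HMGA2 and TRIM71 form a set of 8 regulators that are characteristic of embryonic and fetal cells, and their RNA was followed as human embryonic stem cells became cardiac cells. The 8 genes were found by matching the Ensembl identifiers of the deposited tables to GENCODE symbols, and all 8 were among the 48777 listed genes. The data were bulk RNA sequencing of H1, a widely used line of human embryonic stem cells, in 15 libraries, with 3 biological replicates on each of days 0, 4, 9, 11 and 20. All groups were grown on laminin, with LN-521 and LN-221 given in the labels, although the deposited sample table lists LN-521 alone for day 0. Day 0 cells were in Nutristem medium. By the treatment protocol, the Wnt activator CHIR99021 was given for a day from day 4, the Wnt inhibitor IWP2 from day 7 to day 9, and plain medium was changed on days 9 and 11. A growth protocol in the same labels places CHIR99021 on days 1 and 3 and IWP2 on day 5, so the treatment that the day 4 cells had received is not certain. The study calls its day 11 cells committed cardiac progenitors. The labels call the third time point day 9, and the methods list day 7 in its place. The wells came from 1 cell line in a dish, and no tissue was sampled.

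LIN28A and LIN28B are RNA-binding proteins that hold back the maturation of the let-7 microRNAs. Mature let-7 in turn represses the RNAs of LIN28A, LIN28B, HMGA2, IGF2BP1 and TRIM71 through sites in their 3′ untranslated regions (UTRs), so that the LIN28 proteins and let-7 oppose each other. TRIM71 is an RNA-binding ubiquitin ligase of embryonic stem cells. HMGA1 and HMGA2 are architectural chromatin proteins that bind AT-rich DNA, and IGF2BP1, IGF2BP2 and IGF2BP3 bind and stabilise messenger RNAs, IGF2 among them. Most of these genes are abundant in the embryo and low in adult tissue, and IGF2BP2 is the member best known in adult tissue.

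The let-7 sequences are shown because they link most of the set to a single regulator. The RefSeq table (GRCh38.p14) held 8 let-7 names on the 5′ arm, and all 8 share the seed GAGGUAG, which is bases 2 to 8. In the 4 examples here, in RNA letters from 5′ to 3′, capitals mark the seed.
hsa-let-7a-5p: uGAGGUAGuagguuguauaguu
hsa-let-7b-5p: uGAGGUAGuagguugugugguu
hsa-let-7g-5p: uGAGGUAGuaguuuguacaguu
hsa-let-7i-5p: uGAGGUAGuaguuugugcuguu

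A match to that seed, CTACCTC, was searched for on the sense strand of the 3′ UTR of the canonical GENCODE v44 transcript of every coding gene. All 8 genes held at least 1 match, as did 1868 of 19229 coding genes (9.71%), and the 8 genes held 22 matches together. TRIM71 had 6, LIN28B, IGF2BP1 and HMGA2 had 4 each, and LIN28A, IGF2BP2, IGF2BP3 and HMGA1 had 1 each. Only 12 coding genes held 4 or more. Long UTRs hold more matches: 35.3% of genes with a UTR of 5000 bases or more had one, against 13.4% of those of 2000 to 3000 bases. Per length, the set had 0.747 matches per kb and all coding genes pooled had 0.0628. Several of these genes are known as let-7 targets, so this is a description of the set and not independent evidence about it, and the libraries did not measure let-7 itself. The first match in each gene after the stop codon is given here with the bases before it, as 24 bases of the transcribed strand in GRCh38, with the match in capitals.
LIN28A, plus strand, chr1:26427347-26427370: tgcacagcctattgaaCTACCTCa
LIN28B, plus strand, chr6:105078811-105078834: tacccggttgcaaagtCTACCTCa
TRIM71, plus strand, chr3:32891967-32891990: caacattgcttaagtcCTACCTCa
HMGA1, plus strand, chr6:34245828-34245851: ttcctctgttcacaaaCTACCTCt
HMGA2, plus strand, chr12:65963297-65963320: cgccaacgttcgatttCTACCTCa
IGF2BP1, plus strand, chr17:49051060-49051083: ctgtgtgcgaagtaaaCTACCTCa
IGF2BP2, minus strand, chr3:185644220-185644243: aaacacacagaagaagCTACCTCa
IGF2BP3, minus strand, chr7:23311795-23311818: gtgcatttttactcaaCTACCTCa

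The match was followed by A, the base that strengthens let-7 sites, in each of these windows but that of HMGA1. Later matches in the same UTRs were mixed, some followed by A and others by T or C. The first match lay close behind the stop codon in HMGA2, LIN28B and TRIM71, at bases 21, 44 and 172 of the UTR.

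**Figure D1:**
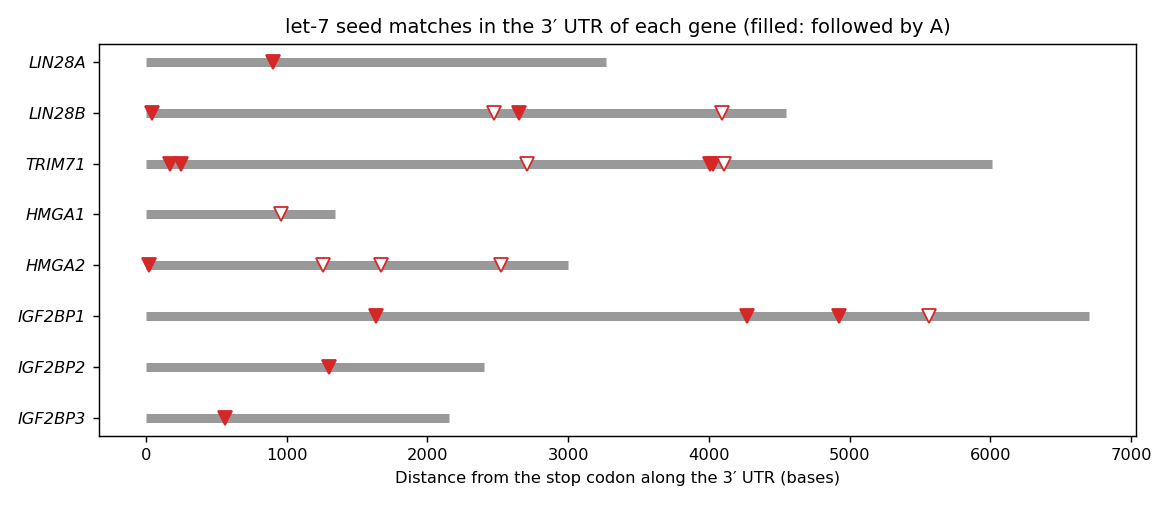
Positions of the let-7 seed match in the 3′ UTR of each gene, as distance from the stop codon in bases along the canonical transcript. Grey bars give the UTR to scale, from 1347 bases in HMGA1 to 6701 in IGF2BP1, and triangles give the 22 matches, filled where the next base is A.

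Library totals lay between 11990302 and 33469703 counts, and every one of the 8 genes had at least 499 counts in every library. Levels of a gene are given as CPM, counts scaled to a common library size after TMM scaling over the 15 libraries, and levels of different genes are compared only as TPM, the deposited values that also divide by gene length. A single very short gene took 20.0% of all TPM in day 0 replicate 3 and 17.0% in day 9 plate 2, which lowers the TPM of the remaining genes there. The day 20 library labelled plate 2_3 stood apart. Its RNA integrity number was 6.1, against 8.8 to 10.0 in the others, and its TMM factor was 1.90, against 0.870 to 1.04 in the other 14. It had reads on 251 of 252 coding genes that were silent up to day 11, at a median of 7.19 reads per kb, and that rate would give 5.72% of its LIN28A counts and 0.615% of its HMGA1 counts. The results that rest on day 20 are given with it, and their values without it stand beside them or after the gene lists. By its plate number it may share a plate with the library labelled plate 2, so these 2 may be less independent than the label of biological replicates implies. No 2 libraries of a day agreed within sampling noise.

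LIN28A was among the most abundant coding RNAs of the undifferentiated cells and was far lower by day 20. It is on the plus strand of chromosome 1 from 26410817 to 26429728 (ENSG00000131914). It stood at 2788, 3126 and 2728 CPM in day 0 replicates 1, 2 and 3, and at 3914, 2174 and 2567 CPM on day 4 in plates 1, 2 and 5. On day 9 it stood at 1804, 2007 and 1704 CPM in plate 2, plate 6 and the library with no plate number, and on day 11 at 1307, 869 and 1005 CPM in plates 2, 5 and 6. On day 20 only 105, 16.8 and 49.3 CPM were left in plate 2, plate 2_3 and plate 6. Days 0 and 4 overlapped, and each later day lay wholly below the day before it. By mean TPM, LIN28A ranked 13 among 18894 coding genes on day 0, 89 on day 11 and 2830 on day 20. Its mean CPM on day 20 was 1.98% of that on day 0, and 75.7% of the log2 change came after day 11. Without the library labelled plate 2_3 these were 2.68% and 72.5%.

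LIN28B, the paralog of LIN28A, held its level for longer. It is on the plus strand of chromosome 6 from 104936616 to 105083332 (ENSG00000187772) and stood at 286, 420 and 294 CPM on day 0 and at 306, 301 and 312 CPM on day 4. It was at 261, 314 and 231 CPM on day 9 and at 295, 157 and 300 CPM on day 11, so that the first 4 time points overlapped, each with the next. On day 20 it was at 38.3, 25.9 and 112 CPM, each below every day 11 library. Of its log2 change from day 0 to day 20, 83.7% came after day 11, the largest share among the 6 genes that passed the test between those days. The LIN28B exons share 181 bases with LIN28B-AS1 on the opposite strand, and whether counting used strand is not stated. LIN28B-AS1 itself had at most 1.79 CPM.

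TRIM71 was lower on each successive day after day 4, with its largest differences between days 4 and 9 and after day 11. It is on the plus strand of chromosome 3 from 32817997 to 32897824 (ENSG00000206557) and stood at 1379, 1494 and 1394 CPM on day 0 and at 1730, 1643 and 1352 CPM on day 4. By day 9 it was at 714, 615 and 621 CPM, below every day 4 library, and on day 11 it was at 437, 421 and 525 CPM. On day 20 it was at 149, 41.3 and 89.1 CPM. Its mean CPM was 45.7% of the day 0 value on day 9, 32.4% on day 11 and 6.55% on day 20, or 8.37% without the library labelled plate 2_3. Days 9, 11 and 20 did not overlap, and days 0 and 4 did.

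The HMGA paralogs parted ways. HMGA1 is on the plus strand of chromosome 6 from 34236873 to 34246231 (ENSG00000137309) and was as abundant as LIN28A on day 0, at 2514 ± 332 TPM (SD, n = 3). It stood at 1461, 1917 and 1697 CPM on day 0, at 1801, 1442 and 1613 CPM on day 4, at 1454, 1162 and 1132 CPM on day 9 and at 1051, 914 and 758 CPM on day 11. On day 20 it was at 263, 91.4 and 209 CPM. Neighbouring days overlapped up to day 9 and were apart from day 9 on. At 362 ± 68.0 TPM (SD, n = 3) on day 20 it still ranked 298 among coding genes, above the other 7 genes. The 6 HMGA1 pseudogenes in the table, whose reads counting could split, together held 0.0445% to 3.79% of the HMGA1 count. The 2 LIN28A pseudogenes held up to 7.62% of the LIN28A count, the highest share being in the library labelled plate 2_3.

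HMGA2 had no lower level on day 20 than on day 0 beyond the spread between replicates. It is on the plus strand of chromosome 12 from 65824460 to 65966291 (ENSG00000149948) and stood at 114, 265 and 154 CPM on day 0, at 143, 124 and 120 CPM on day 4, and at 202, 285 and 139 CPM on day 9. It was at 289, 187 and 228 CPM on day 11 and at 147, 168 and 194 CPM on day 20. In the order of day means, from day 11 through days 9, 0 and 20 to day 4, every neighbouring pair overlapped except day 20 and day 4. HMGA2 had the lowest mean TPM of the 8 genes up to day 11, with 30.1 TPM on day 4 (SD 1.27, n = 3) and 57.1 TPM on day 11 (SD 11.9, n = 3). That rank rests on the length by which the deposited TPM divides, which is not disclosed. The annotated HMGA2 exons cover 15070 bases together, against 2327 in HMGA1, and a shorter length would give HMGA2 a higher TPM. On day 20, at 56.4 ± 23.8 TPM (SD, n = 3), the HMGA2 mean was above those of LIN28B, TRIM71 and IGF2BP3, within the spread of all 4. Without the library labelled plate 2_3 the HMGA2 mean was 43.2 TPM. That was below LIN28B (53.6 TPM) and TRIM71 (53.2 TPM) and just above IGF2BP3 (42.0 TPM). The HMGA2 exons share 384 bases with HMGA2-AS1 on the opposite strand, which had at most 8.46 CPM.

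The 3 IGF2BP genes each had a course of their own. IGF2BP1, on the plus strand of chromosome 17 from 48997385 to 49056145 (ENSG00000159217), had a slightly lower mean on each successive day up to day 11. It was at 514, 644 and 582 CPM on day 0, 579, 459 and 499 CPM on day 4, 492, 479 and 432 CPM on day 9, and 427, 356 and 444 CPM on day 11, with each day overlapping the next. On day 20 it was at 266, 135 and 220 CPM, each below every earlier library. Its exons share 37 and 76 bases with 2 long non-coding RNAs on the opposite strand.

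IGF2BP2, on the minus strand of chromosome 3 from 185643130 to 185825042 (ENSG00000073792), was highest on day 9. It was at 156, 159 and 186 CPM on day 0, 188, 154 and 170 CPM on day 4, 233, 216 and 204 CPM on day 9 and 216, 179 and 197 CPM on day 11. On day 20 it was at 161, 69.4 and 142 CPM, below every day 11 library but overlapping day 0.

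IGF2BP3, on the minus strand of chromosome 7 from 23310209 to 23470491 (ENSG00000136231), was lower on day 9 than on day 4 and lower again on day 20. The first of these steps passed the edgeR test given below (log2 fold change −1.28), and the step after day 11 did not (−0.84). It was at 411, 252 and 334 CPM on day 0 and 427, 356 and 406 CPM on day 4, then at 162, 171 and 154 CPM on day 9 and 167, 161 and 173 CPM on day 11. Those 2 later days were indistinguishable by their ranges, and day 20 was lower again, at 81.5, 57.8 and 102 CPM. IGF2BP3 exons share 1521 bases with MALSU1 on the opposite strand, a mitochondrial ribosome assembly factor that had 10.1 to 31.2 CPM in the 15 libraries.

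**Figure D2:**
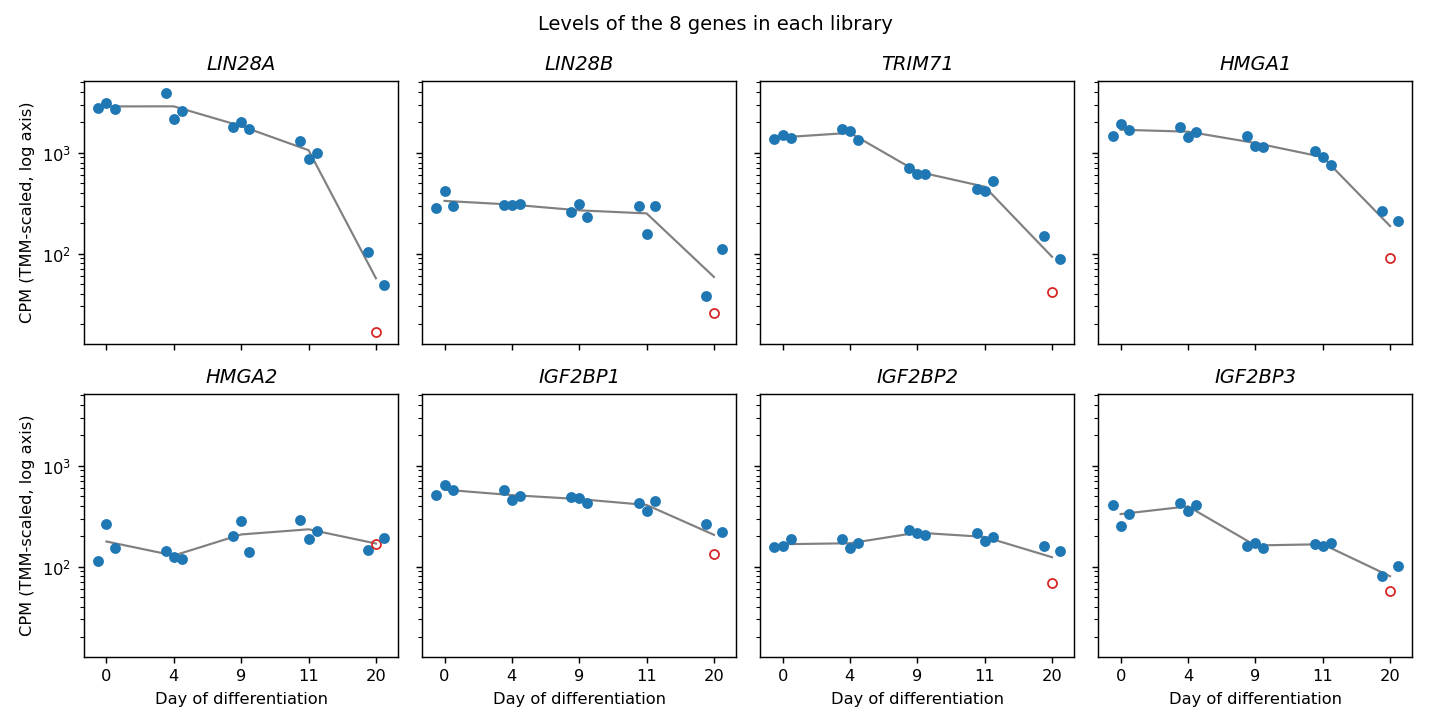
CPM of the 8 genes on a log axis against the day of differentiation, with 1 point for each of the 3 libraries of a day and a line through the day means. The open red circle is the day 20 library labelled plate 2_3. LIN28A goes from 2880 CPM on day 0 to 57.1 CPM on day 20 as a mean, whereas HMGA2 is at 178 and 170 CPM.

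The comparisons of successive days ask when each gene changed. They used edgeR's quasi-likelihood test, p-values were adjusted for all genes in the fit by the Benjamini-Hochberg method, and successive comparisons share a day's libraries. From day 0 to day 4, none of the 8 genes passed an adjusted p-value of 0.05, nor did any of 20964 genes tested (0%), and DESeq2 called none either. At an unadjusted p-value under 0.05 there were 741 genes. The log2 fold changes of the set lay between −0.46 for HMGA2 and 0.24 for IGF2BP3. No gene of the set had replicates that did not overlap between these days, against 9.64% of all genes.

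From day 4 to day 9, 3 of the 8 genes fell and 2 rose, while 24.7% of all genes tested fell and 24.3% rose. With so many genes changed in each direction, the counts of the set are near the background. IGF2BP3 fell, with a log2 fold change of −1.28 (SE 0.12, edgeR adjusted p = 8.05e-05), and so did TRIM71, with −1.26 (SE 0.14, edgeR adjusted p = 0.000191). Both passed under all 12 alternatives. LIN28A fell by less, with −0.63 (SE 0.20, edgeR adjusted p = 0.0316). IGF2BP2 rose, with 0.37 (SE 0.12, edgeR adjusted p = 0.0317), and HMGA2 rose, with 0.71 (SE 0.24, edgeR adjusted p = 0.0399). These last 3 calls were less firm: with the lane as a block, adjusted p was 0.0747 for LIN28A, 0.0961 for IGF2BP2 and 0.0672 for HMGA2, and each was lost with some single library left out. Within lanes 1, 2 and 5, which each held a library of both days, the log2 difference of LIN28A was −0.27, −0.35 and −1.20. That of HMGA2 was 0.70, 1.25 and −0.04. The remaining 3 genes did not pass, with −0.36 for HMGA1 (adjusted p = 0.0838), −0.18 for LIN28B (adjusted p = 0.334) and −0.12 for IGF2BP1 (adjusted p = 0.480). For 4 of the 8 genes the libraries of day 4 and day 9 did not overlap, against 58.5% of all genes.

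From day 9 to day 11, the step over which the study defined its progenitor signature, none of the 8 genes passed, where 2.39% of all genes did. The largest differences were −0.79 for LIN28A (SE 0.21, edgeR adjusted p = 0.103), −0.49 for TRIM71 (SE 0.17, edgeR adjusted p = 0.197) and −0.45 for HMGA1 (SE 0.20, edgeR adjusted p = 0.319). These were the 3 genes whose replicates did not overlap, against 24% of all genes, although HMGA1 overlapped in TPM. Without overlap in CPM, each was bound to be lower on day 11 within lanes 1, 2 and 5, so those signs add no support. For LIN28A the within-lane differences lay between −1.05 and −0.38. DESeq2 called LIN28A (DESeq2 adjusted p = 0.00474) and 1674 of all genes, against 495 in edgeR. LIN28A passed under 3 of 13 alternatives. It did not pass with the lane as a block (edgeR adjusted p = 0.162) or in a single fit of all 15 libraries (edgeR adjusted p = 0.504). With 1 replicate left out, its edgeR adjusted p lay between 0.126 and 0.340. The other 5 genes had log2 fold changes between −0.19 for IGF2BP1 and 0.17 for HMGA2.

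From day 11 to day 20, 3 of the 8 genes fell and none rose, while 0.435% of all genes tested fell and 1.12% rose. LIN28A fell by 4.10 on the log2 scale (SE 0.58, edgeR adjusted p = 0.0230), TRIM71 fell by 2.16 (SE 0.39, edgeR adjusted p = 0.0412) and HMGA1 fell by 2.12 (SE 0.37, edgeR adjusted p = 0.0392). LIN28A was at percentile 0.0234 of all genes tested by log2 fold change. Without the library labelled plate 2_3 these 3 genes passed again, with −3.73 for LIN28A, −1.90 for TRIM71 and −1.89 for HMGA1. Without overlap in CPM between days 11 and 20, all 3 were bound to be lower on day 20 within lanes 1, 2 and 5. Those signs therefore add no support. The log2 differences within these lanes were −4.13, −5.86 and −3.63 for LIN28A and up to −3.04 for HMGA1. In these bulk samples, fewer cells of a type and less RNA per cell cannot be told apart.

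The calls of this step were sensitive to single libraries. With all 6 libraries, 332 of all genes passed. With day 11 plate 2, 5 or 6 left out, none of the 8 genes passed, and of all genes 0, 1 and 0 did. Without day 20 plate 2, LIN28A alone of the 8 and 94 of all genes passed. The log2 fold change of LIN28A stayed between −4.80 and −3.73 with any replicate left out. With the lane as a block LIN28A alone of the 8 and 137 of all genes passed. DESeq2 called 5 of the 8 and 1871 of all genes, and a single fit of all 15 libraries called 6 and 3132. The other 5 genes had lower estimates on day 20 without passing, at −1.92 for LIN28B (SE 0.52, edgeR adjusted p = 0.111), −0.84 for IGF2BP3 (SE 0.25, edgeR adjusted p = 0.134) and −0.79 for IGF2BP1 (SE 0.28, edgeR adjusted p = 0.211). IGF2BP2 had −0.49 (edgeR adjusted p = 0.427) and HMGA2 had −0.20 (edgeR adjusted p = 0.807). Replicates did not overlap for 7 of the 8 genes, all but HMGA2, against 24.2% of all genes, and the same 7 did not overlap in TPM or in CPM with no scaling factor.

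**Figure D3:**
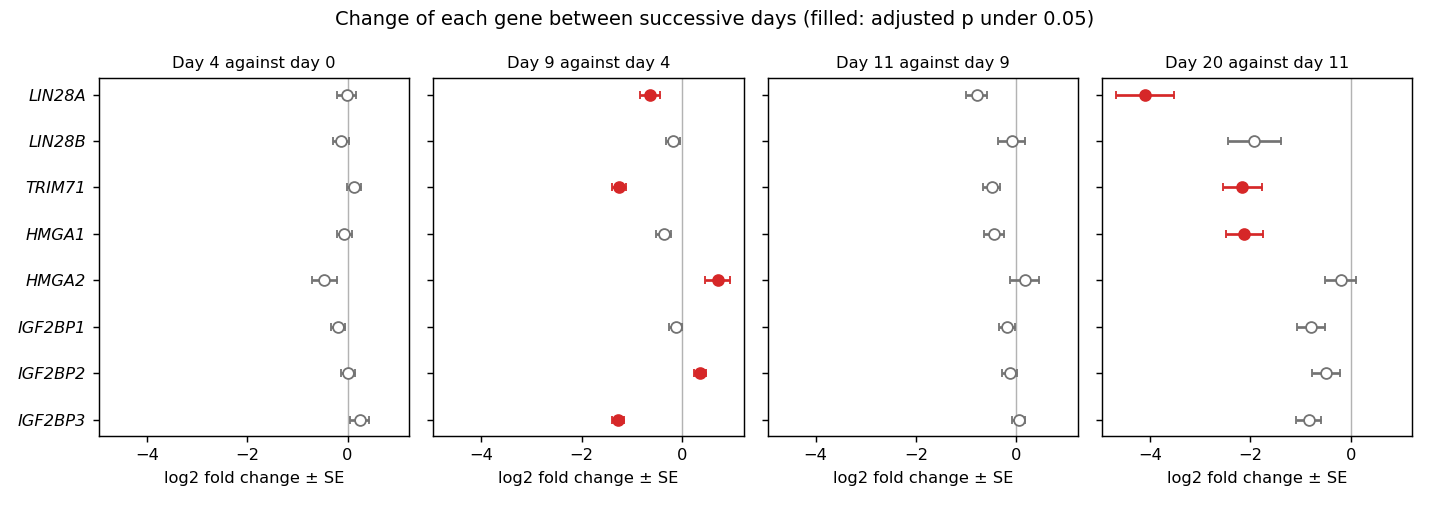
Log2 fold change with its standard error for each of the 8 genes between successive days, from edgeR fits of 6 libraries each, with filled red points for an adjusted p under 0.05. TRIM71 and IGF2BP3 fell at day 9 against day 4, whereas HMGA1 passed only at day 20 against day 11.

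Over the whole course, day 20 against day 0, 6 of the 8 genes fell and none rose, while 11.3% of all genes tested fell and 16.1% rose. LIN28A fell by 5.55 on the log2 scale (SE 0.62, edgeR adjusted p = 0.000874), TRIM71 fell by 3.79 (SE 0.42, edgeR adjusted p = 0.000874) and HMGA1 fell by 3.02 (SE 0.38, edgeR adjusted p = 0.00137). LIN28B fell by 2.34 (SE 0.49, edgeR adjusted p = 0.0103), IGF2BP3 fell by 1.85 (SE 0.30, edgeR adjusted p = 0.00380) and IGF2BP1 fell by 1.30 (SE 0.28, edgeR adjusted p = 0.0109). IGF2BP2 had −0.26 (SE 0.28, edgeR adjusted p = 0.523) and HMGA2 had 0.20 (SE 0.36, edgeR adjusted p = 0.727). The 6 genes that fell were those whose replicates did not overlap, against 46% of all genes, and they fell again without the library labelled plate 2_3. The LIN28B call was lost without day 0 replicate 2 (−2.21, edgeR adjusted p = 0.0503), and its estimate was −3.16 without day 20 plate 6. The IGF2BP1 call was lost without day 0 replicate 3 (−1.39, edgeR adjusted p = 0.0744) and with no filter on low counts (−1.52, edgeR adjusted p = 0.0536). The median of the set was −2.09, beside 0.11 over all genes tested. This comparison shares its libraries with the first and last steps, so its values are not independent of theirs.

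The 6 genes that fell from day 0 to day 20 differed in when the change came. The steps between days are of unequal length, and the step from day 11 to day 20 is the longest. By the means of log2 CPM, the share of the day 0 to day 20 change that came after day 11 was 83.7% for LIN28B, 75.7% for LIN28A, 72.6% for HMGA1, 67.1% for IGF2BP1, 60.3% for TRIM71 and 53.0% for IGF2BP3. Without the library labelled plate 2_3 they were, in the same order, 80.6%, 72.5%, 68.3%, 59.8%, 54.9% and 47.4%. Up to day 11, LIN28B was 1.36-fold, IGF2BP1 1.42-fold and HMGA1 1.87-fold below day 0, whereas LIN28A was 2.75-fold and TRIM71 3.10-fold below it. HMGA1 was the gene that passed the test after day 11 and at no earlier step. The changes of LIN28B and IGF2BP1 passed over the whole course but at no single step.

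On day 20 the library labelled plate 2_3 was the lowest of the 3 for 7 of the 8 genes in TMM-scaled CPM, and HMGA2 was the exception. This order depended on the scaling: with no scaling factor, and in TPM, it was lowest for 4 genes, LIN28A, IGF2BP2, HMGA1 and TRIM71. In TPM, LIN28A was at 101, 31.7 and 48.5 in plate 2, plate 2_3 and plate 6, and IGF2BP1 was at 112, 112 and 95.3. LIN28B differed most between the other 2 libraries, at 26.7 TPM in plate 2 and 80.6 TPM in plate 6.

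The ratios within each family differed between days. LIN28A was far ahead of LIN28B on day 0, with ratios of TPM of 13.4, 10.2 and 12.7, and on day 20 the ratios were 3.76, 0.889 and 0.602. The mean log2 ratio on day 0 was 3.59 (SD 0.21, n = 3). It was 2.58 on day 11 (SD 0.36, n = 3), and by day 20 it was 0.34 (SD 1.39, n = 3). The day 20 and day 0 ratios did not overlap and differed by −3.25 on the log2 scale (p = 0.1 by an exact permutation test, two-sided, which is as small as 3 libraries against 3 can give). Without the library labelled plate 2_3 the day 20 mean log2 ratio was 0.59. On day 20, 2 of the 3 libraries held more LIN28B than LIN28A per length. They were the library labelled plate 2_3, with a ratio of 0.889, and plate 6, with 0.602.

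In TPM, HMGA1 exceeded HMGA2 in every library, with a mean log2 ratio of 6.05 on day 0 (SD 0.42, n = 3), and of 6.37 by day 4 (SD 0.10, n = 3). The size of this ratio depends on the undisclosed gene lengths behind the TPM. The ratio was 4.69 (SD 0.29, n = 3) by day 11 and 2.74 (SD 0.86, n = 3) by day 20. The difference between days 20 and 0 was −3.31 on the log2 scale (p = 0.1 by the same exact permutation test), and −2.86 without the library labelled plate 2_3. The median ratio of TPM was 72.9 on day 0 and 7.10 on day 20, and over this course HMGA1 fell while HMGA2 did not pass the test.

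Within the IGF2BP family, IGF2BP1 kept 39.2% to 46.2% of the summed TPM as a mean on each day. IGF2BP3 held 33.6% of it on day 4 (SD 0.900, n = 3) and 16.4% by day 9 (SD 0.748, n = 3), and IGF2BP2 held 26.0% ± 0.138 and 39.5% ± 0.857 (SD, n = 3 each) on the same days. On day 20 IGF2BP2 had the largest mean share, at 44.2% ± 3.35 (SD, n = 3), which overlapped that of IGF2BP1, at 39.2% ± 2.36 (SD, n = 3). The summed TPM of the family was 479 ± 47.1 on day 0 and 272 ± 9.55 on day 20 (SD, n = 3 each). Without the library labelled plate 2_3 the day 20 means were 270 TPM for the sum, 46.1% for IGF2BP2 and 38.3% for IGF2BP1.

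**Figure D4:**
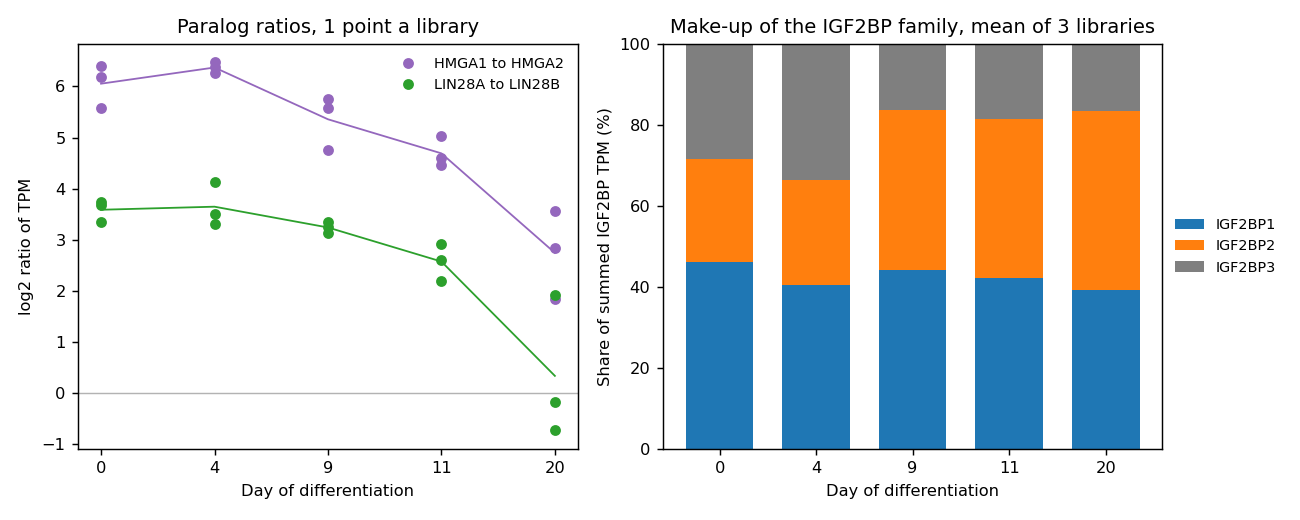
Left, log2 ratio of TPM of HMGA1 to HMGA2 and of LIN28A to LIN28B in each library by day, with lines through the day means; right, mean share of the summed IGF2BP TPM held by each gene over the 3 libraries of a day, in percent. The LIN28A to LIN28B ratio reaches 0.34 on day 20 as a mean, and the IGF2BP3 share goes from 33.6% on day 4 to 16.4% on day 9.

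Of 15 genes that work with the LIN28 proteins or process microRNAs, none passed from day 11 to day 20, and the median log2 fold change was −0.28, beside 0.07 over all genes. From day 4 to day 9, 4 rose and 3 fell, near the 24.3% and 24.7% of all genes tested. AGO4 and AGO3, Argonaute proteins that carry mature microRNAs, rose by log2 fold changes of 1.45 (edgeR adjusted p = 2.37e-05) and 1.06 (edgeR adjusted p = 0.000131), and TNRC6A, their silencing partner, had −1.01 (edgeR adjusted p = 0.000462). Over the whole course, in which 16.1% of all genes rose and 11.3% fell, 1 rose and 3 fell, TNRC6A by the most, with −1.71 (edgeR adjusted p = 0.00269). TUT4 and TUT7, the uridylyl transferases that tail let-7 precursors bound by LIN28, and DIS3L2, the nuclease that degrades the tailed precursors, had values of 0.32, −0.09 and 0.52 over the whole course, none past the threshold, although TUT4 and DIS3L2 had risen from day 4 to day 9, with 0.42 and 0.47.

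The table lists 7 host genes whose transcripts contain let-7 hairpins, and MIR100HG, MIR99AHG and SPACA6 rose from day 0 to day 20. Of all genes tested, 16.1% rose over that course. The levels of a host transcript do not give the level of mature let-7, which these libraries did not measure. MIR100HG, host of let-7a-2, was at 0.982 to 1.65 CPM on day 9, at 29.7, 51.1 and 19.1 CPM on day 11 and at 36.3, 26.9 and 59.3 CPM on day 20. It rose from day 9 to day 11 by a log2 fold change of 4.60 (SE 0.45, edgeR adjusted p = 0.0126). MIR99AHG, host of let-7c, rose over the same step, with 3.33 (SE 0.56, edgeR adjusted p = 0.0299), to 3.69, 9.07 and 5.32 CPM. MIRLET7BHG, host of let-7a-3 and let-7b, fell from day 4 to day 9, with −2.10 (SE 0.34, edgeR adjusted p = 0.00133), and HUWE1, a ubiquitin ligase gene that hosts let-7f-2, fell with −0.83 (SE 0.14, edgeR adjusted p = 0.00151). From day 11 to day 20 none of the 7 passed.

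The other let-7 target genes had no common direction. Of 19 listed genes, 13 of which held the seed match in their 3′ UTR, 7 rose and 3 fell from day 4 to day 9, beside 24.3% and 24.7% of all genes. Over the whole course 2 rose and 5 fell, beside 16.1% and 11.3% of all genes, with a median of −0.61, beside 0.11 over all genes. NR6A1, an orphan nuclear receptor of early embryos, fell the most over the course, with −3.18 (SE 0.37, edgeR adjusted p = 0.000966), and it was the gene of this list that passed from day 11 to day 20, with −2.53 (SE 0.31, edgeR adjusted p = 0.0173). CDC25A, a phosphatase that drives the cell cycle, fell with −2.33 (SE 0.45, edgeR adjusted p = 0.00744). CDK6, a cyclin-dependent kinase, and FIGN rose, with 2.35 (SE 0.43, edgeR adjusted p = 0.00594) and 1.60 (SE 0.32, edgeR adjusted p = 0.00805).

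The 8 other HMG genes encode chromatin proteins of the HMGB and HMGN kinds. Over the whole course 2 of them fell and none rose, beside 11.3% and 16.1% of all genes. The 2 were HMGB3, with −2.65 (SE 0.38, edgeR adjusted p = 0.00224), and HMGB1, with −1.24 (SE 0.37, edgeR adjusted p = 0.0404). Of 5 RNAs known to be bound by IGF2BP proteins, 3 rose and none fell. Their median was 3.08, beside 0.11 over all genes. IGF2, the fetal growth factor for which the family is named, rose with 9.53 (SE 1.33, edgeR adjusted p = 0.00213), and H19, the imprinted RNA beside it, rose with 7.83 (SE 1.12, edgeR adjusted p = 0.00236). IGF2 was at 2361, 171 and 5788 CPM in the 3 day 20 libraries, against 2.47 to 6.71 CPM on day 0, so that the RNA rose while IGF2BP1 and IGF2BP3 fell.

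Without the library labelled plate 2_3, 8993 genes passed from day 0 to day 20, against 6027 with it, and the lists held more calls. Of those 8993 genes, 4823 rose and 4170 fell, against 3536 and 2491 with that library. Calls grew in number over all genes, so the larger counts of the lists are not read as particular to them. Of the genes that process microRNAs, 2 rose and 4 fell. Of the let-7 hosts, 3 rose and 1 fell, MIRLET7BHG, with −2.81 (edgeR adjusted p = 0.00896). Of the other let-7 targets, 4 rose and 6 fell, and of the other HMG genes 3 fell. Of the IGF2BP-bound RNAs, 3 rose and 1 fell, ACTB, with −1.14 (edgeR adjusted p = 0.00942). The log2 fold change was then −2.99 for NR6A1, −3.07 for HMGB3, 10.09 for IGF2 and 8.35 for H19, and each passed again. From day 11 to day 20, NR6A1 passed again, with −2.33 (edgeR adjusted p = 0.0160), and none of the let-7 hosts or microRNA genes did.

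**Figure D5:**
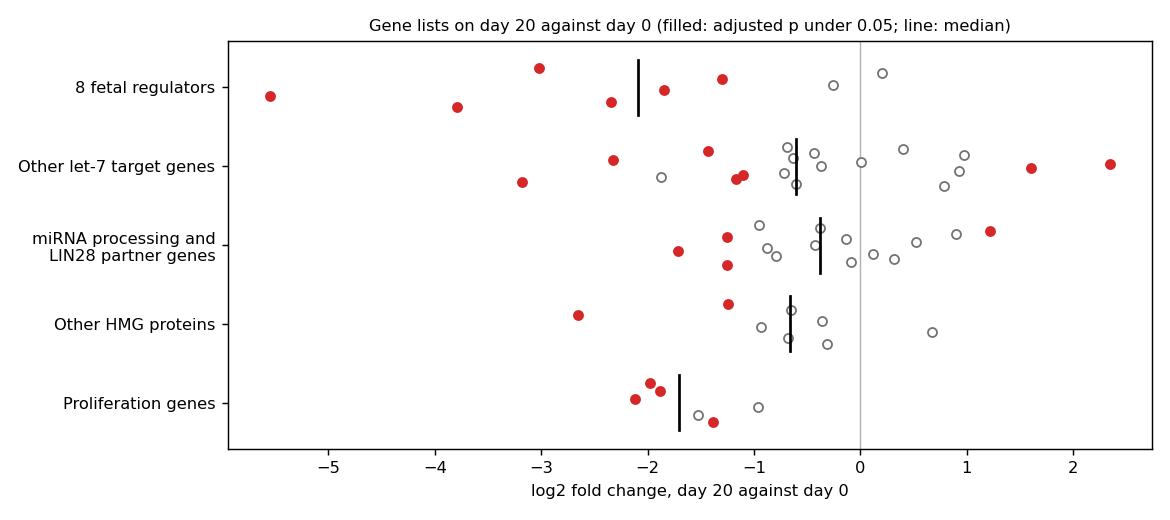
Log2 fold change of day 20 against day 0 for each gene of 5 lists, with 1 point a gene, filled red for an adjusted p under 0.05, and a line at the list median. The median of the 8 regulators is −2.09, those of the let-7 target and HMG lists are −0.61 and −0.67, and the proliferation genes are at −1.70.

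Markers of cell types also differed between days, though from day 11 to day 20 they showed few calls. Of all genes tested, 0.435% fell and 1.12% rose over that step, so few calls do not show a stable cell make-up. Over that step 2 of the 7 pluripotency markers fell, DNMT3B and DPPA4. No cardiomyocyte, fibroblast, endoderm, endothelial, epithelial or proliferation gene of the lists passed. Without the library labelled plate 2_3, 1 proliferation gene passed. The 2 pluripotency markers that fell were then DNMT3B and L1TD1, and DPPA4 did not pass (edgeR adjusted p = 0.0605). All 7 pluripotency markers fell from day 4 to day 9 and over the whole course, and their summed TPM was 4918 to 8149 on day 0, 430 to 551 on day 9, 156 to 226 on day 11 and 34.8 to 84.7 on day 20. Unlike these markers, which were already low on day 9, LIN28A then still had 63.8% of its day 0 mean and HMGA1 73.9%. The sum of 6 cardiomyocyte markers was 13.9 to 15.6 TPM on day 0, 3746 to 20731 TPM on day 11 and 4963 to 22083 TPM on day 20, and all 6 rose from day 0. For 6 fibroblast and mesenchyme markers the sum was 141 to 271 TPM on day 0. It was 1030 to 6099 TPM on day 11 and 1123 to 21818 TPM on day 20. The sum of 6 endoderm and yolk sac markers was 6.81 to 15.1 TPM on day 0 and 667 to 2478 TPM on day 11. In the 3 day 20 libraries it was 17415, 702 and 20608 TPM, lowest in plate 2_3. Proliferation genes had a median of −1.70 from day 0 to day 20, with 4 of 6 falling, beside 11.3% of all genes. All 6 fell without the library labelled plate 2_3. No marker was at 0 in all 3 libraries of any day. The part of these shifts in cell make-up in the changes of the 8 genes was not tested.

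The genes whose log2 CPM followed each regulator most closely were taken from 11115 genes with a mean of at least 10 CPM over the 15 libraries. For LIN28A these were HMGA1 and CBX2, each with Pearson's r of 0.993, and for HMGA1 they were LIN28A and CBX2. For TRIM71 they were SALL4 (0.994), a zinc finger factor of pluripotent cells, and GIGYF1 (0.988). IGF2BP1 was followed by MARCKSL1 and SMARCD1 (0.982 each), LIN28B by ANKS6 (0.975) and SECISBP2 (0.972), IGF2BP3 by GSPT2 (0.975) and EEIG2 (0.971), and IGF2BP2 by KIAA1958 (0.979) and ID1 (0.972). HMGA2 had the weakest best matches, GNG2 (0.854) and MAP4K5 (0.852). These values describe 15 libraries that share days and depth. Within the set, r was 0.97 between LIN28A and TRIM71, 0.92 between LIN28A and LIN28B and −0.05 between LIN28A and HMGA2.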

How the data were processed

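Stranded, rRNA-depleted total RNA libraries were read as pairs. The authors mapped reads to GRCh38 (Ensembl release 79) using STAR 2.5.2b, counted them per gene by featureCounts 1.5.1, dropped ribosomal and mitochondrial genes, and deposited raw counts. The strand setting is not given in the sources used here. TPM values were deposited too, made by the authors from the counts with an undisclosed length per gene. Another deposited file gives each library's RNA integrity number (a score), its uniquely mapped fraction, and other labels including the lane. Depth and the spread between replicates both set the standard errors. The replicates are described as biological.

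Of the 48777 identifiers, 46872 were found in GENCODE v44, which gave symbols, coordinates and 3′ UTRs, and all 101 listed genes were found. The count test was that of edgeR 4.0.16 under R 4.3.3: TMM, robust quasi-likelihood, two-sided, after filterByExpr (at least 10 counts, total at least 15). Each fit held 6 libraries from 2 days and no covariates. Adjustment for multiple testing followed Benjamini and Hochberg over every gene in the fit, with a threshold of 0.05. Standard errors are the log2 fold change over the square root of the F statistic. Log2 CPM had 0.5 added and TPM ratios 0.1 added before the log. Ratios were compared with scipy 1.17.1. The fits were tested on simulated data first.

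The alternatives were DESeq2 1.42.0, its size factors in edgeR, keeping low counts, a joint fit of 15 libraries, lane or plate as a block, and leaving out 1 replicate at a time. Library totals with no scaling factor were added after the data were seen. The genes and lists were chosen with earlier results of these data known. All 8 regulators are named, and from each other list at most the 2 largest rises and 2 largest falls per comparison, plus genes on which a value turns. The single-cell libraries were not analysed here.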

Additional observations from a re-analysis of the deposited data

How the results depend on the processing

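Of the 480 alternative values of the log2 fold changes of the 8 genes, 410 kept their direction and their side of the threshold, 42 lost significance, 11 gained it and 17 changed sign. All 17 sign changes were in estimates that had not passed the threshold. From day 0 to day 4 these were LIN28A without the filter (0.00), and, with a replicate left out, LIN28A (range −0.26 to 0.14), LIN28B (−0.22 to 0.03) and IGF2BP2 (−0.05 to 0.14). From day 9 to day 11 they were LIN28B with the plate as a block (0.04), and, with a replicate left out, LIN28B (−0.24 to 0.15), IGF2BP3 (−0.00 to 0.09) and HMGA2 (−0.06 to 0.47). From day 0 to day 20 they were HMGA2 without the filter (−0.12) and with a replicate left out (−0.13 to 0.52).

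The number of the 8 genes past the threshold from day 4 to day 9 was 2 with all 15 libraries in one fit, 2 with the lane as a block and 2 to 4 with a replicate left out, against 5. From day 9 to day 11 it was 1 with DESeq2 and 1 without the filter. From day 11 to day 20 it was 5 with DESeq2, 6 with all 15 libraries in one fit and 1 with the lane as a block, against 3, and 0 to 3 with a replicate left out. It was 0 without any single day 11 library, 1 without day 20 plate 2 and 2 without day 20 plate 6. From day 0 to day 20 it was 5 or 6 throughout. With no scaling factor the counts were 0, 4, 0, 3 and 6 in the order of the comparisons.

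Over all genes, the number past the threshold from day 0 to day 4 was 64 without the filter. From day 4 to day 9 it was 6209 with all 15 libraries in one fit. From day 9 to day 11 it was 1674 with DESeq2, 1016 without the filter and 0 to 573 with a replicate left out, the 0 being without day 9 plate 2. From day 11 to day 20 it was 1871 with DESeq2, 3132 with all 15 libraries, 137 with the lane as a block and 0 to 510 with a replicate left out. From day 0 to day 20 it was 10785 with all 15 libraries and 3128 to 8993 with a replicate left out. Without a scaling factor the median log2 fold change of all genes from day 0 to day 20 was 0.23, against 0.11, and without the filter it was 0.91. The causes were not tested.

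Plate numbers were shared by some libraries of days 4, 9, 11 and 20, and 2 day 20 libraries carry plate number 2. Same-numbered libraries correlated in their deviations from the day means with r of −0.10 for days 4 and 9 (plate 2, their only shared number, so that no block could be fitted), of 0.17 and 0.41 for days 9 and 11, and of −0.19, −0.02 and 0.41 for days 11 and 20, so they were taken to share only a number. With the plate as a replicate block, 2 of the 8 genes (LIN28A, edgeR adjusted p = 0.0143, and HMGA1, 0.0365) and 1971 of all genes passed from day 9 to day 11, and 0 of the 8 and 3 of all genes from day 11 to day 20 (LIN28A 0.0799, TRIM71 0.157, HMGA1 0.164). The log2 ratio of LIN28A to LIN28B between days 0 and 20 stayed between −4.04 and −2.72, and that of HMGA1 to HMGA2 between −3.72 and −2.86, under the other pseudocount of 1 TPM and with a replicate left out.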
